A study of Mus musculus with 12 samples.

Results

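A set of 67 genes stood higher in the fetal than in the adult mouse heart and were also higher in the adult heart 1 week after a toxic CUG-repeat RNA was switched on. They were picked from the 19053 named genes of a bead array by the measured values themselves, so their fetal and 1-week differences are a description and carry no test. A named probe was taken when, on the authors' deposited values, its log2 mean was at least 2 higher in the embryonic day 14 (E14) heart than in adult wildtype hearts, at least 1 higher 1 week after induction than in control hearts, and its linear signal was at least 300 on all 3 arrays of the 1-week group. That held for 77 probes, and each gene is represented by the one of these with the highest mean over all 12 arrays. The arrays of hearts collected at 72 h took no part in the thresholds and entered only the mean that picked among probes of a gene. The 72 h levels of the genes are the one comparison that is tested, and its control arrays did serve in the choice.

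The fetal heart grows mainly by division of its muscle cells, while the adult heart muscle cell has left the cell cycle, and genes for DNA replication and mitosis fall silent after birth. The adult heart under load or injury can switch part of the fetal expression programme on again, and its fibroblasts deposit matrix that the embryonic heart also makes. In myotonic dystrophy type 1 (DM1), an expanded CTG repeat in DMPK is transcribed into CUG-repeat RNA that disturbs splicing factors, and many transcripts return to fetal splice forms.

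Total RNA of 1 heart was hybridised to each array, and all animals carried the FVB strain label. Induced hearts came from bitransgenic EpA960/MCM mice aged 2 to 4 months, in which tamoxifen activates the heart-specific MCM recombinase and thereby expression of the repeat RNA. The dose was 20 mg/kg by intraperitoneal injection, given 1 time or on 5 days in a row, and the labels tie neither schedule to a time point. The groups were 3 induced hearts at 72 h, 3 induced hearts at 1 week, 3 hearts labelled untreated MCM controls, 2 adult wildtype hearts and 1 wildtype E14 heart. Since the labels call the MCM hearts untreated, tamoxifen itself and the RNA it induces cannot be told apart here. The labels do not say whether hearts of a group came from separate litters, and the E14 group is a single array without a replicate.

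Signals below are background-corrected, quantile-normalised and on the log2 scale unless the deposited values are named, and a probe counts as detected at a detection p below 0.01. Of 45281 probes, 14202 to 16774 passed detection on an array, and the number of arrays limits the precision. Replicate 2 of the 72 h group stood apart from the other 72 h hearts in these genes. The median, the signs and the calls over the members at 72 h are therefore also given without it. The summed linear signal of 17 macrophage and leukocyte markers was 20101 to 21000 in MCM hearts, 22855, 52799 and 19193 in the 72 h replicates 1 to 3, 76930 to 88566 at 1 week and 7822 at E14. No probe of Ptprc, Cd68, Itgam or Itgb2, which belong to that marker list, was kept. Of 11 fibroblast markers the sum was 34780 to 43315 in MCM hearts, 42709, 47177 and 33005 at 72 h, 47157 to 52384 at 1 week and 29091 at E14. The sum of 15 ventricular muscle markers, all detected on all arrays, was 502212 to 511200 in MCM hearts, 479690 to 506526 at 72 h, 394499 to 399740 at 1 week and 305344 at E14. For 8 epicardial markers it was 413 to 507 in MCM hearts, 632, 1145 and 546 at 72 h, 951 to 1028 at 1 week and 5460 at E14. Of these 8, 1 was detected on each MCM array, 2, 4 and 2 at 72 h, 3 on each 1-week array and 8 at E14. The epicardial sums outside E14 are thus partly background. For 9 atrial muscle markers the sum was 121172, 150191 and 24403 in MCM replicates 1 to 3, 142611, 122276 and 37698 in the 72 h replicates, 92796 to 104983 at 1 week, 106937 and 116566 in adult wildtype hearts and 123005 at E14. MCM replicate 3 and 72 h replicate 3 thus stood apart in atrial markers. The part of these cell types in the results was not tested, and in whole hearts more cells of a type and more RNA per cell cannot be told apart.

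Of 9569 named probes that reached the brightness floor, 2.09% met the fetal criterion and 8.22% the 1-week criterion. By gene, 171 of the 6893 bright genes met the fetal criterion, and the 67 members are 39.2% of them. Of the 650 bright genes that met the 1-week criterion the members are 10.3%. Just 1 bright fetal gene was lower than MCM by 1 or more at 1 week. The floor was set on the 1-week arrays, so it favours genes that are high there, and these shares describe the rule. Without the floor 372 genes met the fetal criterion.

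**Figure D1:**
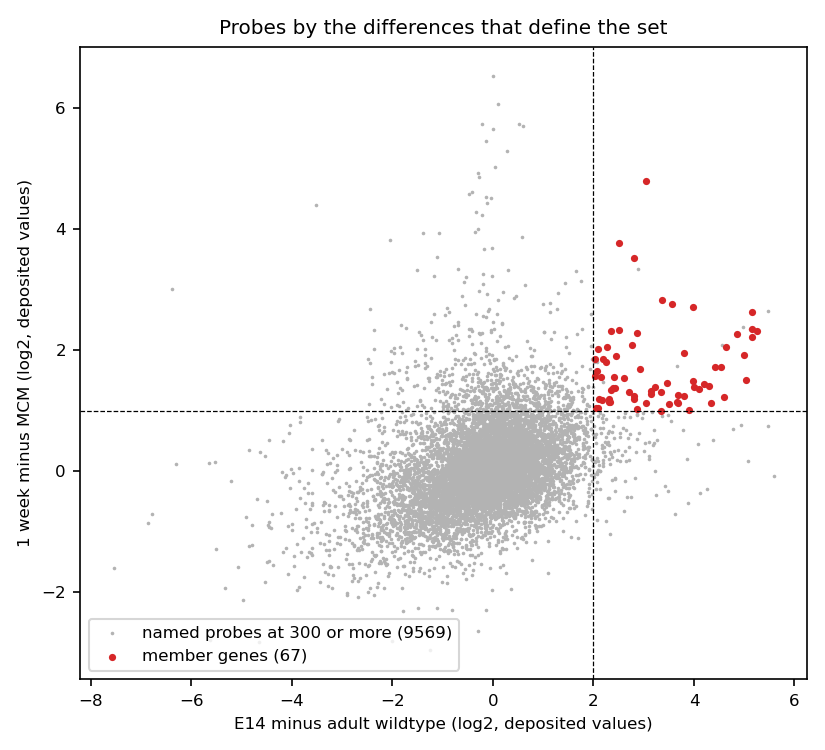
Each point is 1 of 9569 named probes with a deposited signal of 300 or more on all 1-week arrays, placed by its E14 minus adult wildtype difference (horizontal, log2) and its 1 week minus MCM difference (vertical, log2). Red points are the probes of the 67 member genes, dashed lines mark the thresholds of 2 and 1, and the 10 grey points inside the upper right corner are second probes of member genes.

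The edges of the rule ran through genes of the same kinds. On the deposited values, Vim, Kif1a and Lhfpl2 passed the fetal threshold with 2.03, 2.04 and 2.04, while Zyx, Col5a1 and Cercam missed it with 1.98, 1.93 and 1.90. Pdk3, Mfap2 and Slc2a1 passed the 1-week threshold with 1.00, 1.02 and 1.02, and the replication genes Cdt1 and Lig1 missed it with 0.99 and 0.97, as did Nrm with 0.96. The lowest 1-week linear signal was 311 for Kif23, 326 for Nusap1 and 330 for Cdca8, and it was 297 for Gtse1, 286 for Vcan and 285 for Pbk, which were left out.

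By what they encode, the 67 genes fell into 10 mitosis and cytokinesis genes, 8 replication histones, 4 genes of DNA synthesis and its control, 8 extracellular matrix genes, 10 cytoskeletal genes, 9 genes of metabolism and transport, 6 of the cell surface and vesicle traffic, 2 red cell genes, 2 secreted signals, 4 other coding genes and 4 long non-coding or uncharacterised transcripts. All 67 were detected on all 3 arrays at 1 week and on the E14 array. In MCM hearts 13 of them were detected on no array, and in adult wildtype hearts 14. For such genes the fold over that control is given only as a lower bound, from the brighter mean over the mean of, per control array, the higher of the probe's own signal and the lowest signal among detected probes. A member counts as detected in MCM or adult hearts if 1 or more arrays of that group detected it, so part of a control mean can lie within background. Among the 54 members detected in MCM hearts the median log2 difference between 1 week and MCM was 1.85, from 1.12 to 5.62. Among the 53 detected in adult wildtype hearts that between E14 and adult was 3.21, from 2.03 to 5.47. With the other members set at their bound the medians over all 67 were 1.82 and 3.43.

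**Figure D2:**
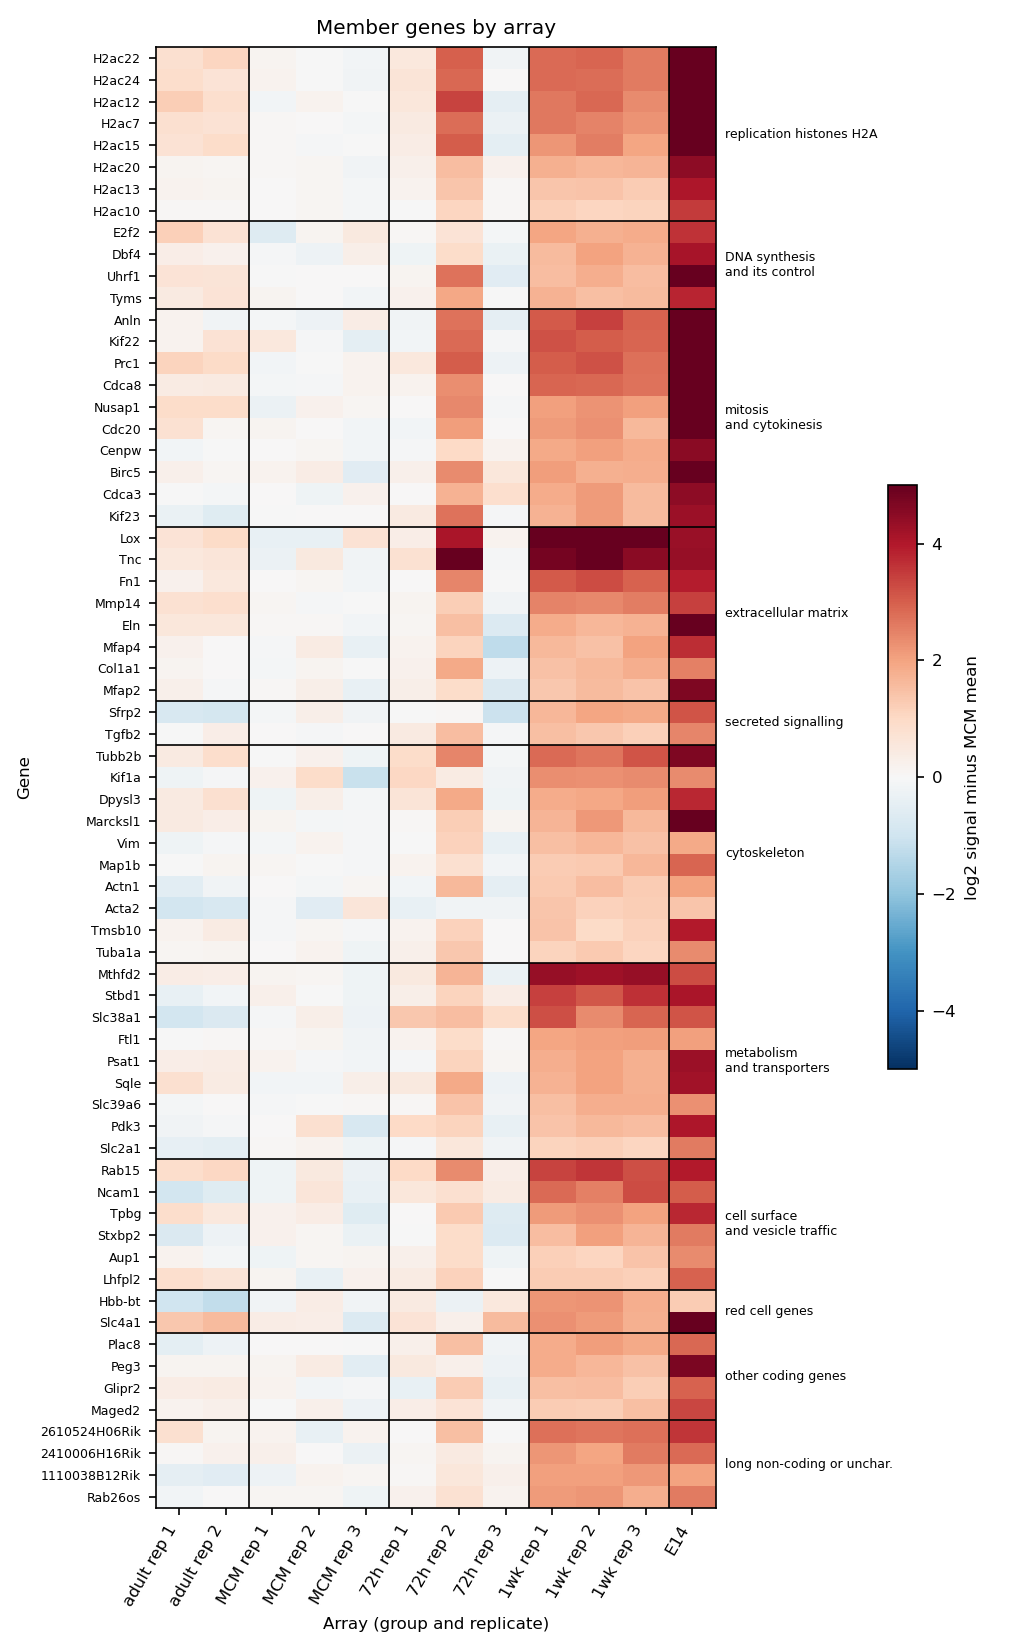
Rows are the 67 member genes in groups by what they encode, columns are the 12 arrays, and colour is the log2 signal minus the mean of the 3 MCM hearts, undetected signals included, with the scale ending at 5 in either direction. All 1-week columns and the E14 column are red in every row because the genes were chosen so, and among the 72 h columns replicate 2 is red in most rows while replicates 1 and 3 are near white.

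The 8 matrix genes held the largest measured 1-week difference of the set, that of Lox. Lox encodes lysyl oxidase, which cross-links collagen and elastin. Its log2 signal was 6.36, 6.38 and 7.45 in MCM hearts, 7.08, 10.83 and 6.92 at 72 h, 12.15, 12.67 and 12.23 at 1 week, 7.42 and 7.67 in adult wildtype hearts and 11.06 at E14. At 1 week all 3 hearts were above the E14 heart, and the group mean was 12.35 ± 0.28 (SD, n = 3) against 6.73 ± 0.62 (SD, n = 3) in MCM hearts, of which 1 of 3 detected the probe. Tnc encodes tenascin-C, a matrix glycoprotein of developing and healing tissue. It gave 5.39, 6.18 and 5.53 in MCM hearts, 6.46, 11.23 and 5.65 at 72 h, 10.47, 10.80 and 10.20 at 1 week, 6.25 and 6.29 in adult wildtype hearts and 10.04 at E14. No MCM or adult heart detected it, so its level at 1 week was at least 12.5-fold that in MCM hearts, and at E14 at least 8.97-fold that in adult hearts. At 72 h only replicate 2 detected it, at a signal above those of all 1-week hearts.

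Fn1, which encodes fibronectin, had log2 signals of 8.38, 8.45 and 8.20 in MCM hearts, 8.38, 10.80 and 8.34 at 72 h, 11.41, 11.59 and 11.28 at 1 week, 8.56 and 8.86 in adult wildtype hearts and 12.27 at E14, an 8.46-fold difference between 1 week and MCM. Its 1-week hearts all lay above all hearts of MCM, adult and 72 h groups and below the E14 heart. Eln encodes elastin, the protein of elastic fibres, and had the largest measured fetal difference of the matrix genes. Its signals were 8.13, 8.13 and 7.94 in MCM hearts, 8.16, 9.58 and 7.39 at 72 h, 9.94, 9.74 and 9.79 at 1 week, 8.64 and 8.63 in adult wildtype hearts and 13.83 at E14. The 1-week hearts therefore stayed far under E14, at 22.9% of the way from adult to E14 on the log2 scale. Mfap2, a component of microfibrils, gave 7.06, 7.29 and 6.62 in MCM hearts, 7.29, 7.91 and 6.28 at 72 h, 8.34, 8.58 and 8.43 at 1 week, 7.24 and 6.93 in adult wildtype hearts and 11.64 at E14. Mfap2 also stayed low on that path. Mfap4, a second microfibril-associated protein, Mmp14, a membrane-anchored collagenase, and Col1a1, a chain of type I collagen, were 1.69, 2.48 and 1.63 higher at 1 week than in MCM on the log2 scale.

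The 10 mitosis genes encode proteins of successive steps of cell division. They are Nusap1, Kif22 and Cenpw for spindle and chromosomes, Cdca8 and Birc5, which encode borealin and survivin of the chromosomal passenger complex, Cdc20, the activator of the anaphase-promoting complex, Cdca3, a trigger of mitotic entry, and Prc1, Kif23 and Anln for the central spindle and the contractile ring. In 6 of the 10 no MCM array detected the probe, and in 6 no adult wildtype array. The 4 detected in MCM hearts, Prc1, Cdc20, Cenpw and Cdca3, were 1.86 to 2.98 higher at 1 week (median 1.98). Of these, Cenpw was detected on all 3 MCM arrays, and Prc1, Cdc20 and Cdca3 on 1 of 3 each, so their MCM means are largely within background. The 4 detected in adult hearts, Prc1, Cdc20, Cenpw and Nusap1, were 4.56 to 5.25 higher at E14 (median 4.64), all on the log2 scale.

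Promoters are shown for 4 of these genes and for 1 histone gene, because genes of the G2 and M phases are known to share a CCAAT box and a cell cycle homology region (CHR) near their start sites. Windows of 300 bases, 250 before and 50 after the annotated start, came from RefSeq on build GRCm38.p6 and existed for 54 of the 67 genes and 27025 genes in all. The windows lie at chr9:61946750-61947049 (minus strand) for Kif23, chr4:124936868-124937167 (minus strand) for Cdca8, chr7:80294201-80294500 (plus strand) for Prc1, chr4:118437294-118437593 (minus strand) for Cdc20 and chr13:23574131-23574430 (plus strand) for H2ac7. They are written 5′ to 3′ along the gene, with matches to CCAAT or to the CHR letters TTTGAA, on either strand, in capitals.
Kif23: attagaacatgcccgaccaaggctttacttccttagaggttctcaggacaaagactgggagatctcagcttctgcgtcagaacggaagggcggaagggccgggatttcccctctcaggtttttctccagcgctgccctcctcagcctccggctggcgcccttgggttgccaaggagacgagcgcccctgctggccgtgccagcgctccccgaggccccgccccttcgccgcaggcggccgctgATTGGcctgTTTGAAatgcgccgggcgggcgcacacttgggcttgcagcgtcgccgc
Cdca8: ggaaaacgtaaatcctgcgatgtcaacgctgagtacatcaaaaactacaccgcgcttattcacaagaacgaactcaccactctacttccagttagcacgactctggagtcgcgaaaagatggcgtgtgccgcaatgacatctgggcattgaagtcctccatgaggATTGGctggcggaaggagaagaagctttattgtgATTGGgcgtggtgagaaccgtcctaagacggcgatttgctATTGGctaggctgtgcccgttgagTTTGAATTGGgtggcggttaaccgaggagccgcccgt
Prc1: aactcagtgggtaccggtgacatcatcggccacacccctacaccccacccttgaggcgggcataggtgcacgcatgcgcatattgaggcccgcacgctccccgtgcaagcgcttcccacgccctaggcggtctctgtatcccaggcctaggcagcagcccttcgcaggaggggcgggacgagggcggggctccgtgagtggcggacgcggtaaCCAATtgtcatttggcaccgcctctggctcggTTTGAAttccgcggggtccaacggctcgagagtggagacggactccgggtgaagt
Cdc20: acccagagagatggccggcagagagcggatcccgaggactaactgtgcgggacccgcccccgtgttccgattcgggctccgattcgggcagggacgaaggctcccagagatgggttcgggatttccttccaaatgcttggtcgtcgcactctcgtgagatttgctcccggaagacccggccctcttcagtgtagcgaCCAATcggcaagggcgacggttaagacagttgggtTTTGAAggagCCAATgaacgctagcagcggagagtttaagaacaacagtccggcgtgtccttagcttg
H2ac7: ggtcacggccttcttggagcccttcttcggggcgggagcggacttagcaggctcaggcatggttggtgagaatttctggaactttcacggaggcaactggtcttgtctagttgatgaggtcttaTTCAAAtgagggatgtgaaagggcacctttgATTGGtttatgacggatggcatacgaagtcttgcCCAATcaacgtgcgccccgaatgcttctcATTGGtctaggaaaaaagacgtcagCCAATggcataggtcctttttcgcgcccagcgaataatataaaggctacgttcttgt

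The letters TTTGAA occurred in 8 of 10 mitosis windows (80.0%), against 20.2% of the windows of all genes. CCAAT occurred in 7 of 10 mitosis genes (70.0%), against 41.1% of all genes with a window. In the Cdca8 window the CHR letters overlap the last CCAAT match, read on the other strand, by 1 base. Over all 54 members with a window the shares were 33.3% for TTTGAA and 63.0% for CCAAT. An AP-1 site (TGANTCA) stood in a window of 5.56% of these members against 8.97% of all genes, and an E2F site written as GGCGGGAA in 1.85% against 2.52%. These are counts of letters in fixed windows and not measured binding sites.

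Anln encodes anillin, the scaffold of the contractile ring. Its log2 signals were 5.72, 5.55 and 6.19 in MCM hearts, 5.65, 8.53 and 5.38 at 72 h, 8.88, 9.24 and 8.78 at 1 week, 6.01 and 5.66 in adult wildtype hearts and 11.72 at E14. No MCM or adult heart detected it, which makes it at least 4.32-fold higher at 1 week than in MCM and at least 28.7-fold higher at E14 than in adult hearts. Kif22, a chromosome-bound kinesin, gave 6.24, 5.66 and 5.20 in MCM hearts, 5.57, 8.53 and 5.66 at 72 h, 8.87, 8.73 and 8.62 at 1 week, 5.87 and 6.41 in adult wildtype hearts and 11.02 at E14. It was likewise detected on no MCM or adult array, with bounds of 3.70-fold at 1 week and 17.6-fold at E14. In both genes replicate 2 at 72 h lay close to the 1-week hearts, while the other 72 h hearts lay near the MCM hearts.

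Prc1, which bundles microtubules at the spindle midzone, gave 6.60, 6.69 and 6.89 in MCM hearts, 7.24, 9.76 and 6.46 at 72 h, 9.76, 9.89 and 9.47 at 1 week, 7.82 and 7.67 in adult wildtype hearts and 13.00 at E14. Of the MCM hearts 1 of 3 detected it, and both adult hearts did. Cdca8 gave 5.12, 5.18 and 5.38 in MCM hearts, 5.41, 7.56 and 5.25 at 72 h, 8.15, 8.11 and 7.96 at 1 week, 5.64 and 5.68 in adult wildtype hearts and 11.42 at E14. Birc5 gave 6.67, 6.88 and 5.95 in MCM hearts, 6.77, 8.85 and 7.05 at 72 h, 8.58, 8.26 and 8.32 at 1 week, 6.76 and 6.61 in adult wildtype hearts and 12.11 at E14. Neither was detected in MCM or adult hearts, and the bounds were at least 2.33-fold and 2.89-fold at 1 week over MCM, and at least 23.4-fold and 37.6-fold at E14 over adult hearts. The 1-week hearts of both stayed more than 3 log2 units below E14.

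Nusap1, a spindle microtubule protein, and Kif23, the kinesin of centralspindlin, passed the brightness floor narrowly. Nusap1 signals were 5.59, 6.09 and 5.97 in MCM hearts, 5.92, 8.29 and 5.82 at 72 h, 7.94, 8.13 and 7.95 at 1 week, 6.81 and 6.81 in adult wildtype hearts and 11.37 at E14. Those of Kif23 were 6.22, 6.26 and 6.27 in MCM hearts, 6.69, 8.98 and 6.18 at 72 h, 8.01, 8.38 and 7.83 at 1 week, 5.93 and 5.65 in adult wildtype hearts and 10.54 at E14. No MCM heart detected either probe, and at 1 week Nusap1 was at least 2.22-fold and Kif23 at least 2.33-fold higher. Another Kif23 probe was brighter and detected on all arrays, so that bound holds for the probe and not for the gene. This other probe was 1.13 higher at 1 week than in MCM and 0.93 higher at E14 than in adult hearts on the log2 scale. The remaining members of the group, Cdc20, Cenpw and Cdca3, were 2.02, 1.94 and 1.86 higher at 1 week than in MCM on the log2 scale. At E14 Cdc20 and Cenpw were 4.66 and 4.61 higher than in adult hearts, which did not detect Cdca3, there at least 19.01-fold higher.

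DNA synthesis was represented by 4 genes. Tyms encodes thymidylate synthase, Uhrf1 a factor that copies DNA methylation to the new strand, Dbf4 the activator of the replication kinase Cdc7, and E2f2 a transcription factor of the S phase. Tyms, Uhrf1 and E2f2 were 1.62, 1.62 and 1.86 higher at 1 week than in MCM, and 3.21, 4.81 and 2.64 higher at E14 than in adult hearts, on the log2 scale. Dbf4 was detected on no MCM or adult array and was at least 2.57-fold higher at 1 week and at least 12.7-fold higher at E14.

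The 8 replication histone genes all encode histone H2A, the core histone made in bulk during the S phase: H2ac7, H2ac10, H2ac12, H2ac13, H2ac15, H2ac20, H2ac22 and H2ac24. Their coding sequences are near-identical, so a probe may not separate one from another, and their values are not 8 independent observations. All 8 genes held a CCAAT match in their windows and 5 of the 8 held TATAAA (62.5%), against 15.7% of all genes with a window. The CHR letters TTTGAA also stood in 5 of the 8 (62.5%), against 20.2%. At 1 week they were 1.13 to 2.78 higher than in MCM on the log2 scale (median 2.35), and at E14 3.43 to 5.47 higher than in adult hearts (median 4.95).

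H2ac22 had log2 signals of 7.56, 7.39 and 7.29 in MCM hearts, 7.92, 10.40 and 7.23 at 72 h, 10.24, 10.32 and 10.03 at 1 week, 8.22 and 8.48 in adult wildtype hearts and 13.81 at E14. H2ac12 signals were 7.49, 7.82 and 7.60 in MCM hearts, 8.19, 11.01 and 7.18 at 72 h, 10.29, 10.49 and 9.99 at 1 week, 8.86 and 8.48 in adult wildtype hearts and 13.98 at E14, and those of H2ac15 were 7.89, 7.79 and 7.81 in MCM hearts, 8.21, 10.86 and 7.35 at 72 h, 10.03, 10.39 and 9.79 at 1 week, 8.57 and 8.76 in adult wildtype hearts and 13.81 at E14. In these 3 genes adult wildtype hearts lay above MCM hearts, and 72 h replicate 2 lay at or above the 1-week hearts while replicate 3 lay below the MCM hearts. All 8 histone genes were lower in MCM than in adult wildtype hearts on average, with a median difference of -0.77 on the log2 scale. This was not particular to histones. With undetected signals included, all 8 matrix and all 4 DNA synthesis genes were lower too, with medians of -0.47 and -0.62. Over the 67 members the median was -0.18, and 19 were higher in MCM. The rule favours genes that are low in MCM hearts.

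By their member probes, H2ac10, H2ac13 and H2ac20 had the smallest 1-week differences of the histones. Second probes of H2ac10 and H2ac13 were 2.97 and 2.57 higher at 1 week than in MCM on the log2 scale, and that of H2ac20 0.34. The order therefore holds for these probes and not for the genes. The values that follow are those of the member probes. H2ac10 gave 11.79, 11.86 and 11.65 in MCM hearts, 11.76, 12.84 and 11.83 at 72 h, 12.95, 12.83 and 12.90 at 1 week, 11.82 and 11.82 in adult wildtype hearts and 15.25 at E14. H2ac13 gave 11.19, 11.29 and 11.07 in MCM hearts, 11.34, 12.58 and 11.25 at 72 h, 12.59, 12.59 and 12.45 at 1 week, 11.37 and 11.31 in adult wildtype hearts and 15.22 at E14, and H2ac20 gave 10.88, 10.89 and 10.64 in MCM hearts, 11.05, 12.35 and 11.01 at 72 h, 12.60, 12.48 and 12.51 at 1 week, 10.94 and 10.90 in adult wildtype hearts and 15.27 at E14. Each of the 3 had the E14 heart more than 2 log2 units above the 1-week hearts. In H2ac20 the 3 hearts at 72 h lay above all MCM hearts. H2ac7 and H2ac24 were 2.46 and 2.73 higher at 1 week than in MCM on the log2 scale.

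The 10 cytoskeletal genes combined microtubule, actin and intermediate filament proteins. Acta2 encodes the smooth muscle actin of vessels and myofibroblasts, which is also the actin of the early embryonic heart. Its log2 signals were 14.20, 13.70 and 14.84 in MCM hearts, 13.88, 14.06 and 14.09 at 72 h, 15.65, 15.40 and 15.48 at 1 week, 13.35 and 13.44 in adult wildtype hearts and 15.63 at E14. The 3 arrays at 72 h all lay under the MCM mean of 14.25 and the 1-week arrays all above it, close to the highest normalised signal of 16.07. Of 10 measured smooth muscle and pericyte markers, Acta2 alone was 1 or more higher at 1 week and 3 were 1 or more lower.

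Vim encodes vimentin, the intermediate filament protein of mesenchymal cells, and gave 11.48, 11.74 and 11.54 in MCM hearts, 11.58, 12.73 and 11.20 at 72 h, 13.08, 13.24 and 13.06 at 1 week, 11.35 and 11.51 in adult wildtype hearts and 13.46 at E14. Tuba1a, an alpha tubulin of developing neurons, gave 11.28, 11.42 and 11.05 in MCM hearts, 11.50, 12.60 and 11.27 at 72 h, 12.37, 12.54 and 12.30 at 1 week, 11.36 and 11.39 in adult wildtype hearts and 13.63 at E14. In both, the 1-week hearts lay above all adult, MCM, and 72 h hearts except 72 h replicate 2 in Tuba1a. Kif1a, a kinesin of axonal transport, gave 7.73, 8.43 and 6.41 in MCM hearts, 8.57, 7.92 and 7.35 at 72 h, 9.84, 9.81 and 9.88 at 1 week, 7.30 and 7.47 in adult wildtype hearts and 9.88 at E14. Its MCM hearts spread widely, 2 of the 3 detected it, replicate 3 was the lowest in the MCM and in the 72 h group, as in the atrial marker sum, and its 1-week hearts were at the E14 level.

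By its member probe Tubb2b, a beta tubulin of developing neurons, was 7.36-fold higher at 1 week than in MCM, with 11.99 ± 0.23 against 9.11 ± 0.22 log2 signal (SD, n = 3 each). A second Tubb2b probe, detected on all arrays and brighter in MCM hearts, was 1.27 higher at 1 week on the log2 scale. That probe missed the fetal threshold with 1.51 on the deposited values. Dpysl3, a microtubule-associated phosphoprotein of growth cones, and Map1b, a microtubule-associated protein of growing axons, were 1.96 and 1.42 higher on the log2 scale. Among actin-associated members, Marcksl1, a MARCKS-like substrate of protein kinase C, was 1.82 higher. Actn1, the alpha-actinin of non-muscle cells, was 1.37 higher and Tmsb10, a thymosin that binds actin monomers, 1.18. Marcksl1 and Tmsb10 stood furthest below E14 in the group, with 1 week minus E14 differences of -3.16 and -2.79.

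Among the 9 genes of metabolism and transport, Mthfd2 encodes the mitochondrial folate enzyme that is high in embryos and in proliferating cells. Its log2 signals were 7.52, 7.48 and 7.16 in MCM hearts, 7.88, 9.10 and 7.05 at 72 h, 11.75, 11.61 and 11.72 at 1 week, 7.75 and 7.74 in adult wildtype hearts and 10.64 at E14. The 1-week mean was 11.69 ± 0.08 against 7.39 ± 0.20 in MCM hearts (SD, n = 3 each), a 19.8-fold difference, and all 3 hearts exceeded the E14 heart. Stbd1, a glycogen-binding protein, gave 7.30, 7.02 and 6.82 in MCM hearts, 7.33, 8.15 and 7.43 at 72 h, 10.46, 10.14 and 10.69 at 1 week, 6.68 and 6.92 in adult wildtype hearts and 11.13 at E14. Of the MCM hearts 2 of 3 detected it, and the 72 h hearts all lay above the MCM hearts. Slc38a1, a sodium-coupled transporter of neutral amino acids including glutamine, gave 6.59, 6.93 and 6.40 in MCM hearts, 8.01, 8.17 and 7.55 at 72 h, 9.85, 9.01 and 9.54 at 1 week, 5.73 and 5.91 in adult wildtype hearts and 9.77 at E14. No MCM or adult heart detected it, all 72 h and 1-week hearts did, and the bounds were at least 6.13-fold at 1 week over MCM and at least 7.43-fold at E14 over adult hearts.

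Ftl1, the ferritin light chain of the iron store, gave 11.87, 11.95 and 11.62 in MCM hearts, 11.98, 12.73 and 11.86 at 72 h, 13.77, 13.85 and 13.88 at 1 week, 11.80 and 11.86 in adult wildtype hearts and 13.87 at E14. Its 1-week hearts were at the E14 level. Pdk3, a kinase that switches off pyruvate dehydrogenase, gave 6.77, 7.54 and 5.97 in MCM hearts, 7.77, 7.86 and 6.38 at 72 h, 8.18, 8.40 and 8.32 at 1 week, 6.60 and 6.71 in adult wildtype hearts and 10.79 at E14. Slc2a1, the glucose transporter GLUT1 of the fetal heart, gave 9.37, 9.48 and 9.12 in MCM hearts, 9.25, 9.91 and 9.16 at 72 h, 10.42, 10.51 and 10.40 at 1 week, 8.91 and 8.84 in adult wildtype hearts and 11.92 at E14. Both stayed more than 1 log2 unit below E14 at 1 week, and Pdk3, like Kif1a, was lowest in replicate 3 of the MCM and 72 h groups. Psat1, an enzyme of serine synthesis, Sqle, a rate-controlling enzyme of cholesterol synthesis, and Slc39a6, a zinc importer, were 1.87, 1.84 and 1.71 higher at 1 week than in MCM on the log2 scale.

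Rab15, a small GTPase of endosomal recycling, is 1 of 6 genes of the cell surface and vesicle traffic. It gave 5.75, 6.45 and 5.67 in MCM hearts, 6.95, 8.32 and 6.30 at 72 h, 9.32, 9.53 and 9.17 at 1 week, 6.83 and 7.00 in adult wildtype hearts and 9.91 at E14. It was detected on no MCM array, on 1 of 2 adult arrays, on 1 of 3 arrays at 72 h and on all at 1 week, where it was at least 5.60-fold the MCM level. Lhfpl2, a tetraspan membrane protein, gave 8.38, 7.86 and 8.45 in MCM hearts, 8.64, 9.38 and 8.19 at 72 h, 9.49, 9.49 and 9.41 at 1 week, 9.07 and 8.87 in adult wildtype hearts and 11.17 at E14. Its 1-week hearts were nearer to the adult hearts than to E14. Ncam1, the neural cell adhesion molecule, Tpbg, the trophoblast glycoprotein 5T4, Stxbp2, a syntaxin-binding protein, and Aup1, a protein of lipid droplets and the endoplasmic reticulum, were 2.87, 2.15, 1.77 and 1.24 higher at 1 week than in MCM on the log2 scale.

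Both red cell genes belong to mature red cells as well as to fetal ones. Hbb-bt encodes an adult beta globin with a near-identical neighbour, so its probe may read both. Its log2 signals were 10.18, 10.71 and 10.16 in MCM hearts, 10.79, 10.05 and 10.89 at 72 h, 12.54, 12.62 and 12.18 at 1 week, 9.34 and 9.12 in adult wildtype hearts and 11.64 at E14. All 1-week hearts exceeded the E14 heart. The 3 other kept Hbb-bt probes, with signals above 14 on all arrays, had E14 minus adult differences of 0.30, -0.61 and 0.41 and 1-week differences of 1.57, 0.79 and 1.23, so the fetal difference of this gene rests on the member probe. Slc4a1, the anion exchanger band 3 of the red cell membrane, was detected on no MCM array and was at least 2.76-fold higher at 1 week. Summed over 9 erythroid markers, Slc4a1 included, the linear signal was 30811 to 43740 in MCM hearts, 41536, 28242 and 47319 at 72 h, 60483 to 63831 at 1 week, 75632 and 78459 in adult wildtype hearts and 152071 at E14.

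The remaining groups were small. Of the secreted signals, Sfrp2, a Wnt-binding protein, was detected on no MCM array and was at least 3.14-fold higher at 1 week, and Tgfb2, a transforming growth factor of heart cushion development, was 1.34 higher on the log2 scale. Among other coding genes, Peg3, an imprinted zinc finger gene expressed from the paternal copy, was 1.65 higher, Maged2, a member of the MAGE family, 1.33, Plac8, a cysteine-rich protein of placenta and leukocytes, 1.96, and Glipr2 1.44. Of the non-coding or uncharacterised transcripts, 2610524H06Rik was detected on no MCM array and was at least 2.64-fold higher. 2410006H16Rik, 1110038B12Rik and Rab26os, named as an opposite-strand transcript of Rab26, were 2.26, 2.08 and 2.07 higher.

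A share of the distance from adult wildtype to E14 needs a measured adult level, so it was taken over the 53 members detected in adult hearts. On the log2 scale their 1-week hearts covered a median of 44.1% of that distance. It was 32.5% for the 8 histones, 32.4% for 3 DNA synthesis genes and 35.6% for 4 mitosis genes. For the 10 cytoskeletal genes it was 51.5%, for 7 matrix genes 63.8%, for 7 genes of metabolism and transport 75.0% and for 3 non-coding or uncharacterised transcripts 79.8%. Of the 18370 kept probes, 47.4% had a 1-week mean at or above the E14 array. Among the 67 members, chosen for a high E14 signal, it was so in 5, a low count that the rule itself favours. Those 5 were Lox, with a 1 week minus E14 difference of 1.29, Mthfd2 with 1.06, Hbb-bt with 0.81, Tnc with 0.45 and 1110038B12Rik with 0.06, all on the log2 scale. The lowest share among the 53 was 15.6%, in Slc4a1. E14 being 1 array, these shares have no error.

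**Figure D3:**
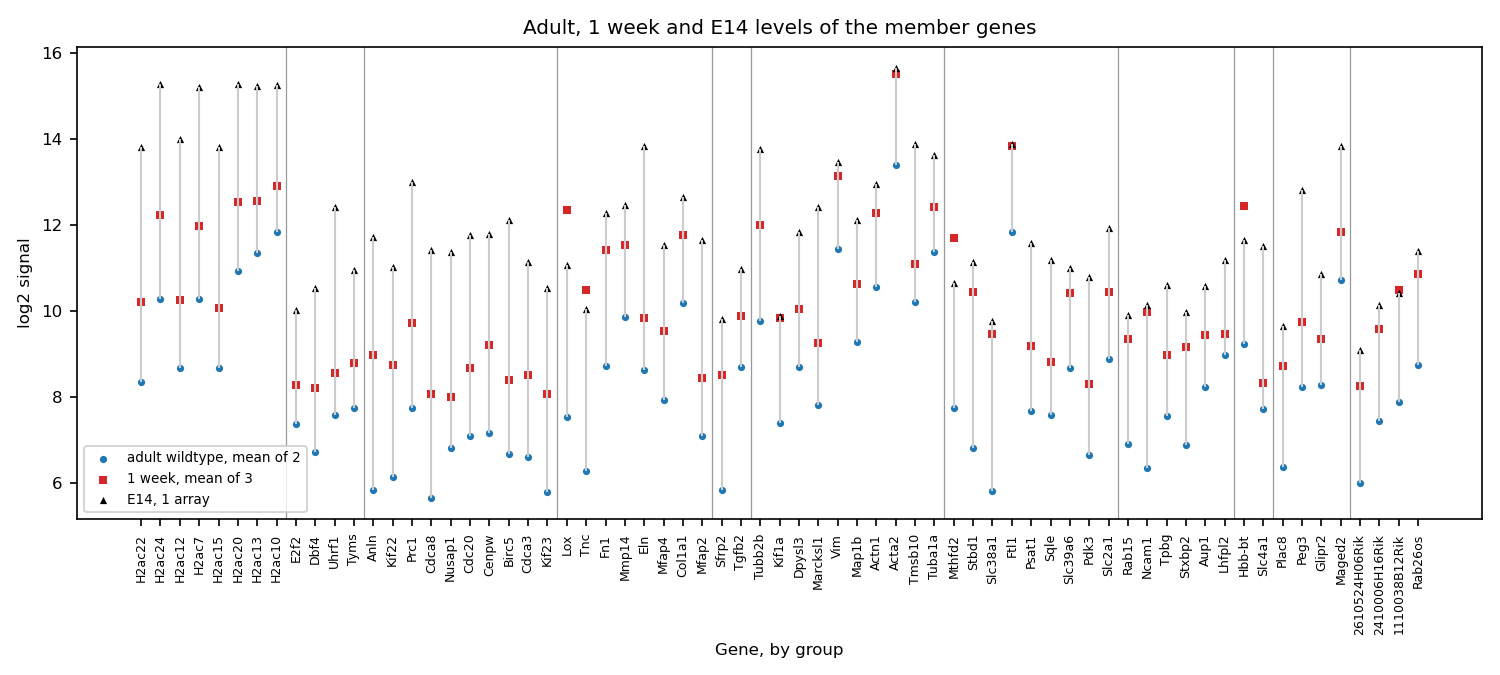
For each of the 67 genes, blue circles give the mean log2 signal of 2 adult wildtype hearts, red squares that of 3 hearts at 1 week and black triangles the single E14 array, with a grey line from adult to E14 and genes in groups by what they encode. For the 14 genes undetected in adult hearts the circle is a signal within background. In histones the squares sit in the lower part of the line, and in Lox, Tnc, Mthfd2 and Hbb-bt they sit above the triangle.

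At 72 h no member passed the test. In limma's fit over 18370 kept probes, 0 of 67 were higher than MCM at an adjusted p below 0.05 (0.158% of all kept probes were) and 0 were lower (0.0708%). With replicate 2 included, 12 of 67 were higher at an unadjusted p below 0.05 (limma), against 3.86% of all kept probes. Without the 8 near-identical histones it was 10 of 59. The median 72 h minus MCM difference of the members was 0.54 on the log2 scale, beside -0.0037 for all kept probes, and 65 of 67 differences were above 0, beside 49.1%. The MCM arrays were also used to choose the genes, which favours genes that are low there. The count of small p values, the median and the signs are therefore not independent of the choice. Over the 54 members detected in MCM hearts the median was 0.46 and 53 differences were above 0. By group their medians were 0.98 for 8 histones, 0.76 for 4 mitosis genes, 0.70 for 3 DNA synthesis genes, 0.51 for 8 genes of metabolism and transport, 0.44 for 10 cytoskeletal genes, 0.40 for 7 matrix genes and 0.32 for 5 of cell surface and vesicle traffic.

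Most of that shift came from 1 heart. The median difference of the members from the MCM mean was 0.20 in replicate 1, 1.39 in replicate 2 and -0.10 in replicate 3 on the log2 scale, and it was 1.83 to 2.04 in the 1-week hearts. Over the 54 detected in MCM hearts it was 0.20, 1.25 and -0.16 at 72 h. Replicate 2 was the highest of the 3 hearts in 62 of 67 genes, beside 39.2% of all kept probes. Of the 67 genes, 40, 61 and 11 lay above all 3 MCM hearts in replicates 1, 2 and 3, beside 24.4%, 33.8% and 24.6% of all kept probes, and 50, 65 and 45 were detected there. Without replicate 2 the median difference was 0.08, 44 of 67 differences were above 0, and 0 of 67 were higher at an adjusted p below 0.05 (0.196% of all kept probes were). Without MCM replicate 3 and 72 h replicate 3, the hearts low in atrial markers, the median difference was 0.75 and 0 of 67 were higher (0.174% of all kept probes were), an alternative chosen after seeing the data. Replicate 2 also had the highest macrophage, fibroblast and epicardial marker sums of the 72 h hearts, given above, and the part of those cells was not tested.

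In replicate 2 the groups differed in size. Over members detected in MCM hearts, its median difference from the MCM mean was 2.84 for histones, 1.92 for DNA synthesis, 1.91 for mitosis, 1.52 for matrix and 1.19 for the cytoskeleton on the log2 scale. For the histones this was above the medians of the 1-week hearts, which were 2.11 to 2.53. For the mitosis genes it was within their 1.74 to 2.21, and for the matrix genes it was below their 1.68 to 1.99. In replicates 1 and 3 the medians were 0.41 and -0.09 for histones, 0.13 and -0.10 for DNA synthesis and -0.01 and 0.10 for mitosis. They were 0.18 and -0.25 for matrix and 0.18 and -0.15 for the cytoskeleton. Hbb-bt had a difference of -0.30 in replicate 2 and was highest of the 72 h hearts in replicate 3.

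**Figure D4:**
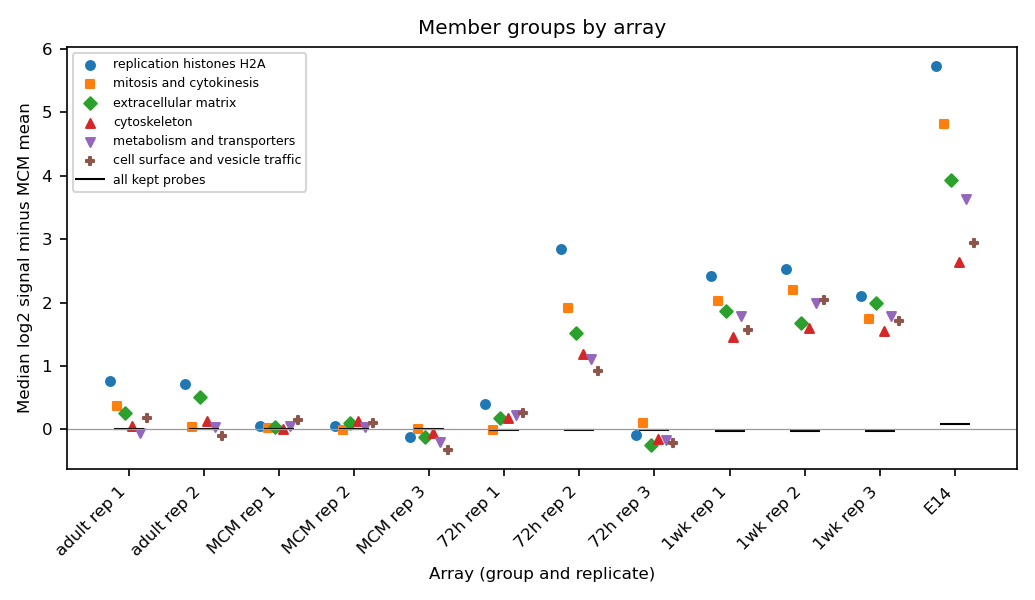
Each symbol is the median log2 signal minus the MCM mean of 1 group of member genes on 1 array, over genes detected in MCM hearts, for the 6 groups with 6 or more genes, and the black bar is the median of all kept probes. In 72 h replicate 2 the histone median is 2.84 and the mitosis median 1.91, while replicates 1 and 3 lie near 0 and the 1-week and E14 arrays lie high by the choice of the genes.

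Slc38a1 came closest to passing at 72 h. Its difference from MCM was 1.27 ± 0.23 on the log2 scale (SE; adjusted p = 0.0548, limma), all 3 hearts at 72 h lay above all MCM hearts, and its adjusted p ran from 9.16e-05 with array weights to 0.276 without MCM replicate 1. The lower bound was 2.08-fold. The hearts at 72 h were 1.37, 1.53 and 0.91 above the MCM mean, so replicate 2 did not stand apart in this gene. A second probe of Slc38a1, which missed the fetal threshold with 1.66 on the deposited values and was singled out after its values were seen, did pass. Its log2 signals were 5.74, 5.89 and 5.49 in MCM hearts, 8.60, 8.48 and 8.44 at 72 h, 10.14, 10.28 and 10.43 at 1 week, 5.39 and 5.39 in adult hearts and 8.18 at E14. It was detected on all induced arrays and on the E14 array and on no MCM or adult array. At 72 h it rose at least 3.15-fold over MCM (log2 difference 2.80 ± 0.15, SE, adjusted p = 5.14e-07, limma), and over 20 alternative settings its adjusted p ran from 7.69e-11 to 0.000279. The third kept probe of the gene did not pass, with a difference of 0.23 ± 0.25 (adjusted p = 0.808, limma). It was detected on 1 of 3 arrays at 72 h, on the E14 array and on no MCM, adult or 1-week array. Its difference is thus mostly a signal within background and cannot be set against the other probes. Of the 58 other kept probes of member genes, 1 was called higher at 72 h and 0 lower.

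Rab15 followed with 1.24 ± 0.39 (adjusted p = 0.539) and Stbd1 with 0.59 ± 0.22 (adjusted p = 0.636), both fitted log2 differences with SE from limma, where Rab15 was detected on no MCM array. In 4 genes, Slc38a1, Stbd1, H2ac20 and Rab26os, all 3 hearts at 72 h lay above all MCM hearts, which also held for 5.3% of all kept probes. In 0 of 67 did all lie below, beside 5.75%. The hearts of Lox at 72 h were 0.35, 4.10 and 0.19 above the MCM mean, and Tnc, undetected in MCM hearts, was detected in replicate 2 alone. Neither passed limma's test, with an adjusted p of 0.659 for Lox and 0.659 for Tnc. The 2 members below MCM on average were Acta2 with -0.24 ± 0.21 (adjusted p = 0.759) and Sfrp2, which was detected on no heart of either group.

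**Figure D5:**
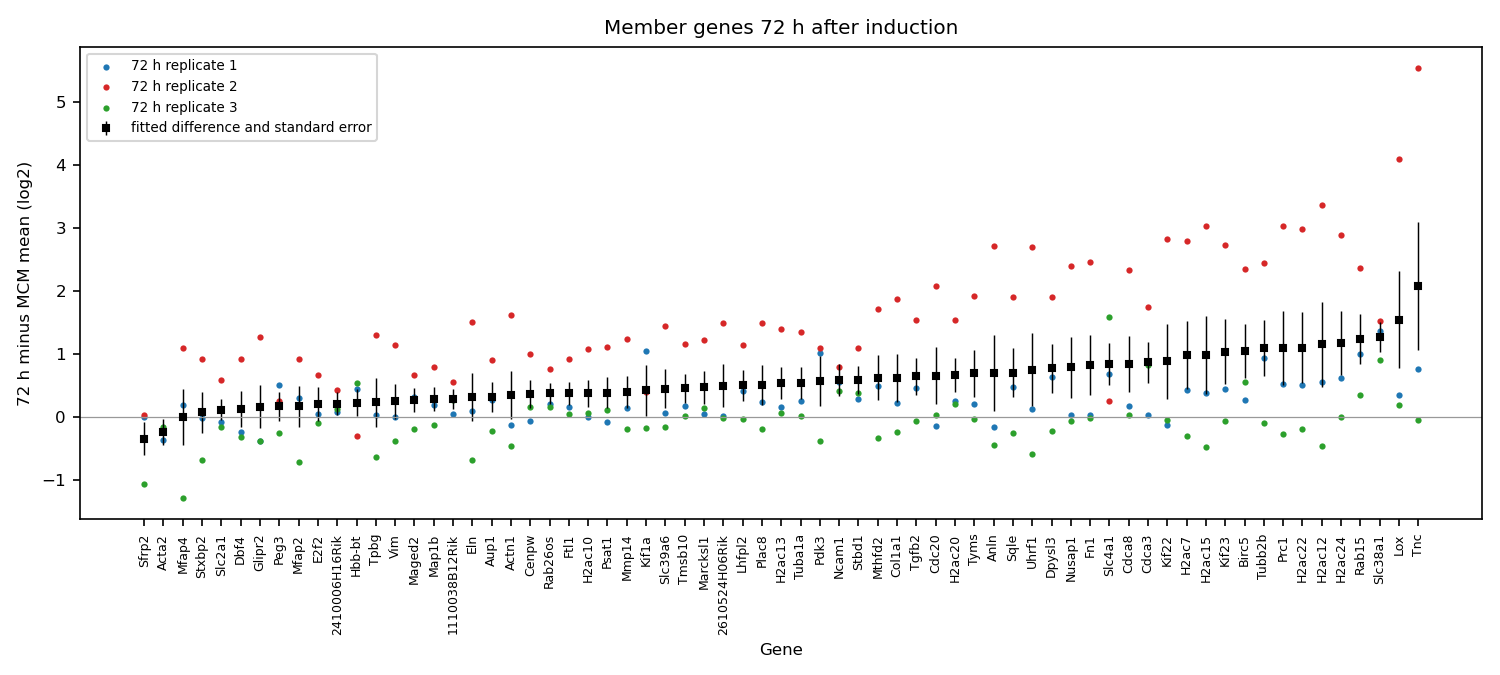
Member genes are ordered by their fitted 72 h minus MCM difference (black squares, log2, with the standard error from limma), and coloured points give each heart at 72 h minus the MCM mean, which for 13 genes is a signal within background. Replicate 2 (red) lies above the other 2 hearts in 62 of 67 genes, and in Slc38a1, the third gene from the right, the 3 hearts lie together at 0.91 to 1.53.

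The count at 72 h moved with the weighting of arrays and with the control. With array weights, which give less weight to arrays that vary more, 8 of 67 were higher (4.95% of all kept probes were): Rab15, Ncam1, Tubb2b, Dpysl3, Slc38a1, Pdk3, Hbb-bt and Tgfb2. Set against adult wildtype hearts, 4 were higher, beside 4.38%: Ncam1, 1110038B12Rik, Slc38a1 and Hbb-bt. Without 72 h replicate 3, 2 were higher, Tubb2b and Slc38a1, beside 0.327%.

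Wider gene lists show how far the set reaches into each pathway, with 1 probe per gene for 10167 genes, of which 5.88% were 2 or more higher at E14 than in adult hearts and 10.1% were 1 or more higher at 1 week than in MCM, by fitted values that include undetected controls. Of 33 measured cell cycle genes, 28 met the first mark and 15 the second, and 6 were members. All 6 replication licensing genes from Mcm2 to Mcm7 met the fetal mark, and Mcm5 alone met the 1-week mark with a log2 difference of 1.20, while Mcm2, Mcm4, Mcm6 and Mcm7 had 0.17 to 0.87 and Mcm3 was detected neither in MCM nor in 1-week hearts. The mitotic kinase genes Cdk1 and Plk1, detected on no MCM array, met both marks. Of 33 matrix genes, 9 met the fetal and 21 the 1-week mark, and 6 were members. Timp1, an inhibitor of matrix proteases, was 6.14 higher at 1 week but 0.66 higher at E14. Of 25 tubulin and actin genes, 9 and 10 met the marks.

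Classic fetal genes of the heart were mostly outside the set. Of 20 measured fetal cardiac genes 5 met the fetal mark and 4 the 1-week mark, and Acta2 was the 1 member. The other genes past the 1-week mark were Uchl1, a ubiquitin hydrolase, with 3.43, Ccn2, a matricellular growth factor, with 2.48, and Nppb, the natriuretic peptide BNP, with 2.11. Uchl1 was 2.09 higher at E14 in these values, and in the deposited values, by which members were chosen, 1.75, under the threshold of 2. Ccn2 and Nppb were not higher at E14, with -0.21 and -1.94. Tnni1, the slow troponin I of the fetal heart, was detected on the E14 array and on none of the 11 adult arrays. Myh7, the fetal myosin heavy chain of the mouse ventricle, was 2.93 higher at E14 and 0.59 higher at 1 week. All 8 measured imprinted and growth genes met the fetal mark and 2 the 1-week mark, Peg3 and Mest. Igf2, Cdkn1c and Grb10 had 1-week differences of -0.37, -0.30 and -0.11, and Dlk1 was detected on the E14 array alone. Of 20 RNA-binding proteins of development 3 met the fetal mark and 0 the 1-week mark. At 72 h limma called 0 genes in any of these lists, beside 0.177% of all genes higher and 0.0885% lower.

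Other probes of the same genes did not all move alike. Of 58 other kept probes in 31 member genes, 19 were detected both in MCM and 1-week hearts, and all 19 were higher at 1 week, 12 of them by 1 or more on the log2 scale. Asking for detection at 1 week or at E14 favours probes that are high there, so these counts lean toward the member probes. A Kif23 probe detected on 1 MCM array and on no 1-week array falls outside the 19, with a 1-week difference of -0.42. Both in adult hearts and at E14 23 were detected, and 21 of them were higher at E14, 15 by 2 or more. The exceptions among these 23 were 1 Hbb-bt probe, near the highest normalised signal, and 1 Aup1 probe, with E14 differences of -0.61 and -0.02. On no 1-week array were 18 of the 58 detected, among them second probes of Anln, Cdca3, Eln, Fn1, Ncam1 and Peg3. A Tubb2b probe detected on all 1-week arrays had a 1-week difference of 0.24. An H2ac20 probe, detected on all 1-week arrays and in both adult hearts, was not detected at E14. It falls outside the 23, with an E14 difference of -1.92.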

How the data were processed

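Hearts were profiled on Illumina bead arrays, 1 array per heart. Per the file headers, each deposited array file holds the average bead intensity of every probe, not normalized, and a detection score between 0 and 1. The authors' deposited value table holds normalized intensity, which was recomputed within 0.001 for 100% of probes by mapping 100 quantiles of each array onto adult wildtype replicate 1, and this match linked the probes of the 2 kinds of file. That table was used for the rule that chose the genes. For everything else the array intensities were corrected with the normal-exponential model (nec in limma 3.58.1, R 4.3.3, offset 16, background inferred from the detection p, which is 1 minus the score), quantile-normalised and put on the log2 scale. A probe was kept if 1 or more groups had it detected (p below 0.01) on all their arrays, which left 18370. One model of the 5 group means over 12 arrays was fitted with limma (lmFit, eBayes with intensity trend, 7 residual degrees of freedom), with Benjamini-Hochberg adjustment over all kept probes, and it was tested on simulated data. A call is an adjusted p below 0.05. Adjusted p values come from this fit unless another setting is named, and calls in the gene lists come from the same model over 1 probe per gene (10167 genes).

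Probe names came from the platform annotation, updated through RefSeq (GRCm38.p6) for 34818 of 34885 probes with 1 symbol. The other 10378 probes had none and 18 had several. The members, lists and groups were chosen with earlier results of these data known. Values on every array are given for the 8 members with the largest fetal difference, the 8 with the largest 1-week difference, the 8 with the highest 1-week signal, those nearest a threshold (3 each) and those on the fetal cardiac list, and the 3 with the lowest adjusted p at 72 h were added. Alternatives changed the background correction, normalization, probe filter, arrays, weights, control, replicate block and thresholds. P-values measure the spread between hearts, and nothing in the labels says how the animals were related.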

Additional observations from a re-analysis of the deposited data

Results flagged for a closer look

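Acta2 drew attention because its hearts lay on opposite sides of the MCM mean at the 2 times. At 72 h the mean difference was -0.24 on the log2 scale, with all 3 hearts below the MCM mean, and at 1 week it was 1.26, with all 3 hearts above. The difference between the times was not tested, since the 1-week values chose the gene. MCM replicate 3, at 14.84, decided the sign at 72 h, and without it the difference was 0.058.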

How the results depend on the processing

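The number of members higher than MCM at 72 h was 0 in the fit as reported and 0 to 2 when 1 heart of the 72 h, MCM or 1-week groups was left out. It was 2 without 72 h replicate 3, beside 0.327% of all kept probes, and 1 without 1-week replicate 2, beside 0.147%. With array weights it was 8, beside 4.95%, and with adult wildtype hearts as the control 4, beside 4.38%. Without a filter on dim probes it was 1, with no share over all probes given here. It was 0 under the other 9 planned settings, and no setting called a member lower. Deviations of same-numbered 72 h and MCM hearts from their group means correlated at 0.04, 0.10 and 0.27. Differently numbered hearts were not compared, so these values cannot say whether replicate numbers pair the hearts. With the replicate number as a replicate block 0 members were called and the median difference was 0.54. That median was 0.23 with array weights, 0.36 against adult wildtype and 0.08 to 0.78 over the fits that left out 1 heart. Differences turned sign in 21 of 67 members without 72 h replicate 2, in 13 with array weights and in 12 with the adult control, and the cause was not tested. Among members named for their values, the sign turned against adult wildtype in Acta2 (0.62), Eln (-0.26), Lhfpl2 (-0.23) and Nusap1 (-0.14), and with array weights in Anln (-0.046), Kif22 (-0.34) and Slc2a1 (-0.089). With 1 heart left out the 72 h minus MCM differences ran from -0.51 to 0.058 for Acta2, -0.30 to 1.27 for Anln, -0.29 to 0.81 for Eln, -0.047 to 1.71 for H2ac15, -0.13 to 0.88 for Kif1a, -0.089 to 1.39 for Kif22, -0.20 to 0.61 for Mfap2, -0.019 to 1.22 for Nusap1, -0.12 to 0.26 for Slc2a1 and -0.20 to 0.57 for Vim. The count of members whose 72 h hearts all lay above the MCM hearts was 4, beside 5.3% of all kept probes. It was 2 with median scaling and 6 to 36 with 1 heart left out (36 without 72 h replicate 3). Fewer hearts make this easier to meet for any probe, and the shares over all kept probes are not given for these settings. These counts therefore cannot be read as a result about the members. The rule gave 102 genes with a fetal threshold of 1.5, 37 with a 1-week threshold of 1.5, 102 with background-corrected differences, which include all 67, and 63 to 72 with 1 heart left out. With 2.5 for the fetal threshold it gave 47, with 0.8 at 1 week 81, with floors of 150 and 600 it gave 78 and 45, and with adult wildtype as the 1-week control 69, of which 57 were shared. Leaving out MCM replicate 3 and 72 h replicate 3 together, chosen after seeing the data, gave 0 calls, a median of 0.75, 38 members with separated hearts (19.02% of kept probes), and turned the sign of Acta2 (0.019) and Hbb-bt (-0.028). The count at or above E14 was 5, and 5 to 6 with 1 heart left out. A member detected on no MCM array has only a bound there, and 38 of the 67 were detected on all 12 arrays.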
